A study of Mus musculus with 16 samples.

Results

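The 10 genes of neuronal maturation described here (of the 18167 genes in the table) are all known for high expression in immature neurons: *Marcksl1*, *Marcks* and *Basp1*, *Dcx*, *Stmn1*, *Tubb2b* and *Tubb3*, *Sox4* and *Sox11*, and *Cd24a*. They were chosen by their names together with the measured pattern of *Marcksl1*, which was lower in WO than in WY mice and higher in MO than in WO mice, so that the members' values in those contrasts are a description, from which nothing is read. The table held batch-adjusted log2(1 + FPKM) values for spinal cords of 16 mice of male label, 1 library each. Both strains carry a human profilin1 transgene under the Prnp promoter (1 line each), on C57BL/6N, so that no group lacks a transgene. WY mice (n = 3, 50 days) and WO mice (n = 5, 190 to 294 days) were hPFN1WT. MY mice (n = 3, 50 days) and MO mice (n = 5, 175 to 245 days, at end stage, when they could no longer right themselves) were hPFN1G118V, which carries a mutation found in familial ALS. WY and MY mice were all of library batch 1, whereas WO and MO mice were of batch 1 (3 each) and batch 2 (2 each), so that an age difference and batch 2 cannot be fully told apart, and values in batch 1 alone are given as well. The WO mice of batch 1 were all 190 days old, and those of batch 2 were 294 days old, older than any MO mouse. A difference of MO from WO mice in batch 2 therefore also holds a difference in age.

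A neuron that leaves its precursor pool extends a growth cone, whose shape depends on membrane-bound substrates of protein kinase C that hold phosphoinositides and actin, and on microtubules that are assembled, stabilised and taken apart. Transcription factors of the SoxC group switch on many of these genes, and the whole program is turned down as the neuron matures. In adult spinal cord, members of it are also known from regrowing axons and from glia, which include oligodendrocyte precursors, reactive astrocytes and microglia.

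The promoters of *Marcksl1*, *Sox4* and *Sox11* are shown because, of the 6 members with a promoter in the RefSeq table (GRCm38.p6), these 3 had the largest higher mean in MO than in WO mice. Each run is the 250 bases before the annotated start, 5′ to 3′ on the gene's strand, and capitals mark GGGCGG or CCAAT read on either strand. A TATA box (spelled TATAAA) and the Sox core (spelled AACAAT) were searched too, and neither set of letters is in these 3 windows. The windows lie at chr4:129513331-129513580 (plus strand), chr13:28953700-28953949 (minus strand) and chr12:27342719-27342968 (minus strand).
Marcksl1: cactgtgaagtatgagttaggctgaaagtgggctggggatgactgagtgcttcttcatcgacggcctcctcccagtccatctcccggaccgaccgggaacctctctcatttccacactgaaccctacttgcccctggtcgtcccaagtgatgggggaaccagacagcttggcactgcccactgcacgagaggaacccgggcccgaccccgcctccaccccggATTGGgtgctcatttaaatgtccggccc
Sox4: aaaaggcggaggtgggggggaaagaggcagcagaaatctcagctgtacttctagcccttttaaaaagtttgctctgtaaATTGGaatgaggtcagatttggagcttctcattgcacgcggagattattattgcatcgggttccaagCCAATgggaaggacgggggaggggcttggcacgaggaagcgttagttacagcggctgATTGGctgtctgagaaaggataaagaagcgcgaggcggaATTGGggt
Sox11: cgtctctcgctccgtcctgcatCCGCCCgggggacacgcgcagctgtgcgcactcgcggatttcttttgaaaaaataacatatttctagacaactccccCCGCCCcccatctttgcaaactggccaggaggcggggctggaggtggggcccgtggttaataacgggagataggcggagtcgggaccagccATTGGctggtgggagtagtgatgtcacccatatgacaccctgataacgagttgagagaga
The *Marcksl1* window holds 1 CCAAT, the *Sox4* window 4 CCAAT, and the *Sox11* window 2 GGGCGG and 1 CCAAT. Of all such windows, CCAAT was found in 33.8% of 32851 of the same length and GGGCGG in 32.7%. The letters of the TATA box were in 12.4% and those of the Sox core in 9.42%, so that a match is a description of the letters alone.

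Some of the members share runs of coding sequence in pairs. *Sox4* and *Sox11* share an identical run of 48 coding bases in the part that encodes the DNA-binding HMG box, the longest run that both hold. It is shown in capitals with 30 flanking bases on each side, read from GENCODE M21 transcripts on GRCm38.
Sox4: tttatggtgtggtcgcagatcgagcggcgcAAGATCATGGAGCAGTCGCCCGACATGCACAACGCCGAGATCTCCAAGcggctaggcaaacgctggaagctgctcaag
Sox11: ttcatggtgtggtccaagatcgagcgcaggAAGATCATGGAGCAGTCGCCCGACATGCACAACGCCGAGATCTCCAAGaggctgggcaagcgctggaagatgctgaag
*Marcks* and *Marcksl1* share at most 17 coding bases in a row, again in capitals with 30 flanking bases.
Marcks: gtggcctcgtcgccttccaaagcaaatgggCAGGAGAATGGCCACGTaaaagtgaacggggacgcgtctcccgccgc
Marcksl1: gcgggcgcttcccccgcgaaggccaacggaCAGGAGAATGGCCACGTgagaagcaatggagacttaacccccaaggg

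Before the members' values, the libraries were checked. The cord label was matched by *Gfap* (9.30 to 11.4), *Snap25* (10.1 to 10.7) and *Hoxc10* (3.94 to 4.47) in every mouse, and markers of sensory neurons summed to at most 0.736 FPKM. The myelin gene *Mbp* was checked too and ran from 5.36 to 14.2, so that libraries stood far apart in it. The cause was not tested. The library labelled MO5 went against its male label, with *Xist* at 3.21, where no other mouse exceeded 0.37, and *Ddx3y* at 1.95, where no other mouse was under 4.06, so the main results are also given without it. MO1 was the lowest of the MO mice in 6 of the 10 members. Of the mean levels, *Tubb3* was highest (400 FPKM at its mean log2 value) and *Stmn1* next (346), *Basp1*, *Cd24a*, *Tubb2b* and *Marcksl1* lay at 89.4, 69.7, 65.3 and 61.5, and *Marcks* at 34.1 FPKM. *Sox4*, *Dcx* and *Sox11* lay at 2.55, 2.15 and 1.13 FPKM, where adding 1 before the log2 understates fold changes. In bulk cord, fewer cells of a type and less RNA per cell cannot be told apart.

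*Marcksl1*, which encodes a small membrane-bound actin and calmodulin-binding protein, gave the pattern that the others were set beside (chr4:129513581-129515985, plus strand, GRCm38, 2 exons, 1605-base transcript). Its log2 level was 6.54, 6.28 and 6.47 in the WY mice and 6.18, 6.28 and 6.22 in the MY mice. It was 5.37, 5.24, 5.39, 5.66 and 5.42 in the WO mice and 5.55, 6.01, 6.11, 6.38 and 6.34 in the MO mice. All WO mice lay below all young mice, and of the MO mice only MO1 fell within the range of the WO mice. The mean was 1.01 lower on the log2 scale (SE 0.10) in WO than in WY mice, a fold of 0.495 (1.10 lower in batch 1). It was 0.66 higher (SE 0.15) in MO than in WO mice, with 0.56 in batch 1, 0.82 in batch 2 and 0.60 without MO5. In the hPFN1G118V line, which the choice of the gene did not use on its own, MO minus MY was -0.15 (SE 0.17, 95% interval -0.54 to 0.25, limma FDR 0.597). It was -0.34 in batch 1 alone (FDR 0.146) and -0.01 without MO1 (FDR 0.935). The group means ran WY, MY, MO and WO from high to low. Of neighbours in that order, WY and MY did not overlap (6.284 against 6.278 at their closest), but their difference did not pass the test, MY lay within the range of MO, and MO and WO overlapped through MO1.

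*Marcks*, the larger relative and a major protein kinase C substrate of growth cones, was lower than *Marcksl1* in level but varied in the same groups (chr10:37133375-37138920, minus strand, 2 exons). It was 5.46, 5.12 and 5.31 in the WY mice and 5.16, 5.12 and 5.12 in the MY mice. It was 4.55, 4.93, 4.85, 4.73 and 4.62 in the WO mice and 5.15, 5.54, 5.48, 5.56 and 5.47 in the MO mice. The WO mice lay below every mouse of the other groups, and the MO mice, MO1 apart, lay above all young mice. WO was 0.56 lower than WY (SE 0.10) and MO was 0.70 higher than WO (SE 0.09; 0.61 in batch 1, 0.84 in batch 2). *Marcks* rose by 0.31 from MY to MO (SE 0.09, limma FDR 0.0386), a 23.7% increase, with the 2 groups overlapping through MO1. This call was lost in batch 1 alone (FDR 0.129) and in 7 of 8 fits without 1 mouse.

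*Basp1*, another growth-cone membrane protein of this kind, showed the smallest differences of the 3 (chr15:25363277-25413764, minus strand). Its values ran from 6.56 to 6.74 in WY mice, 6.51 to 6.60 in MY mice, 6.30 to 6.45 in WO mice and 6.35 to 6.64 in MO mice. WO lay below WY in every mouse, by 0.24 in the mean (SE 0.05), and MO minus WO was 0.11 (SE 0.06). MO minus MY was -0.05 (95% interval -0.22 to 0.12, limma FDR 0.697).

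**Figure D1:**
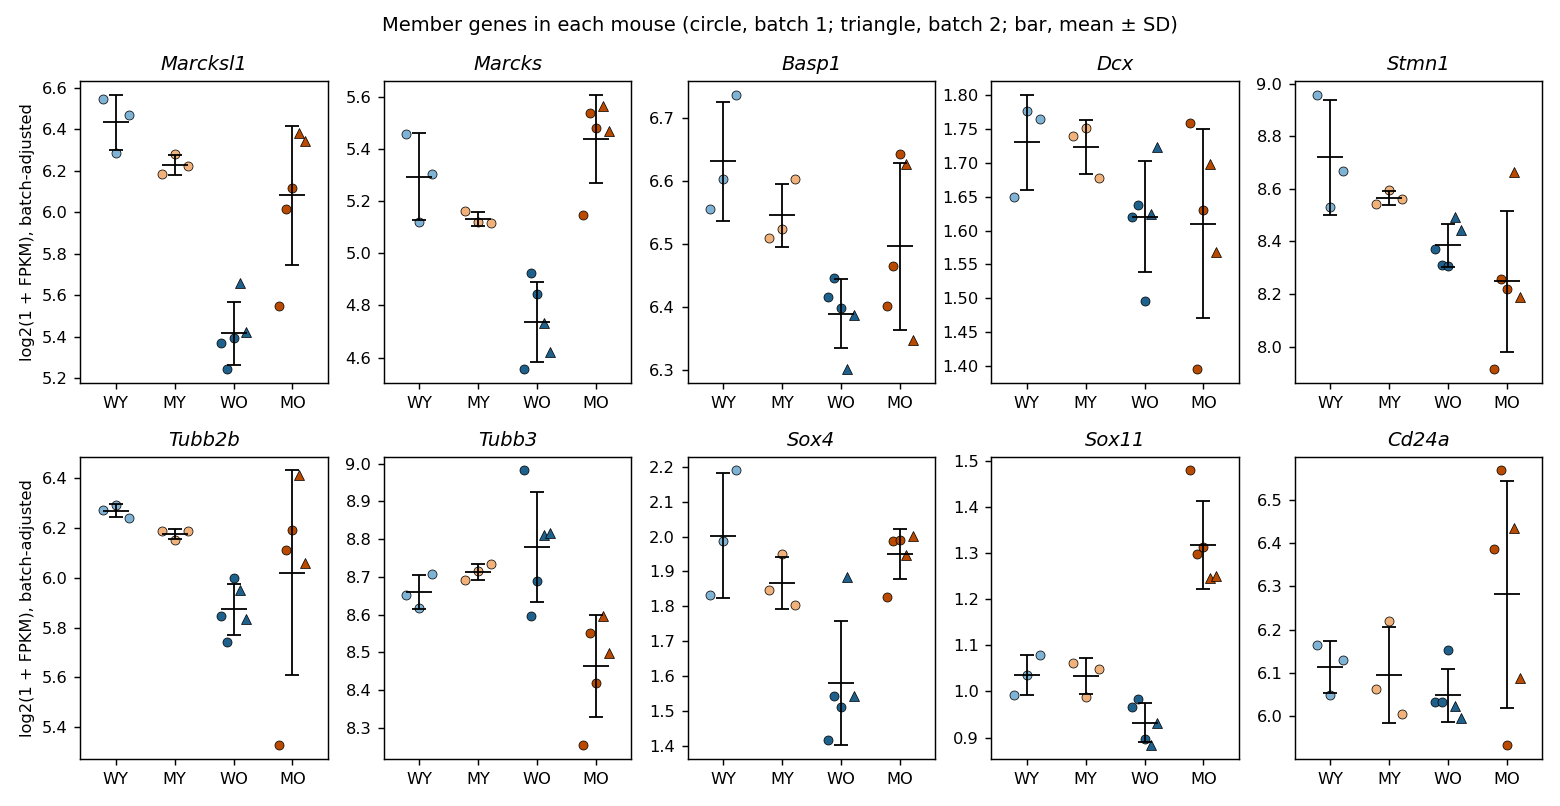
Log2(1 + FPKM), adjusted for batch by the authors, of the 10 members (y axis, each panel with its own range) in each mouse of the WY, MY, WO and MO groups (x axis). Circles are batch 1 mice and triangles batch 2 mice, bars are the mean and SD (n = 3, 3, 5 and 5). The *Marcks* panel shows all WO mice, at 4.55 to 4.93, below all other mice.

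Of the microtubule genes, *Stmn1* and *Tubb2b* were lower in WO mice than in every young mouse. *Dcx* was nearly level, and the mean of *Tubb3* was higher in WO than in WY mice. *Stmn1*, which encodes the tubulin-sequestering protein stathmin, was 8.96, 8.53 and 8.67 in the WY mice and 8.54, 8.59 and 8.56 in the MY mice (chr4:134468320-134473843, plus strand). It was 8.37, 8.31, 8.31, 8.49 and 8.44 in the WO mice and 7.91, 8.26, 8.22, 8.66 and 8.19 in the MO mice. The WO mice lay below all young mice, and the MO mice spread from below them to within the young range. WO was 0.33 lower than WY (SE 0.09), and MO minus WO was -0.14 (SE 0.11; -0.24 without MO4, -0.05 without MO1), of the opposite sign to *Marcksl1*. MO minus MY was -0.32 (SE 0.14, limma FDR 0.137) over all mice, and -0.42 with an FDR of 0.00947 without MO4, the highest MO mouse. Of the 50-base windows of its transcript, 36.5% occur in other genes, mostly the processed pseudogene *Gm11223* (34.7%), so its level is uncertain to that extent.

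*Tubb2b*, a beta-tubulin of migrating neurons, was 6.27, 6.29 and 6.24 in the WY mice and 6.19, 6.15 and 6.19 in the MY mice (chr13:34126748-34130466, minus strand). It was 5.84, 5.74, 6.00, 5.95 and 5.83 in the WO mice and 5.33, 6.11, 6.19, 6.41 and 6.06 in the MO mice. The MO mice ranged from the lowest to the highest value of all 16. WO was 0.40 lower than WY (SE 0.06). MO minus WO was 0.15 (SE 0.17; 0.02 in batch 1, 0.34 in batch 2, 0.32 without MO1), and MO minus MY was -0.15 (limma FDR 0.654), or 0.02 without MO1. *Tubb2a* shares 33.4% of the transcript's 50-base windows, and was at 7.73, 7.72, 7.66 and 7.62 in WY, MY, WO and MO mice, with no difference between groups that passed the test.

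*Tubb3*, the neuronal beta-tubulin, had a higher mean in WO than in WY mice, against the name of the group but without passing the test (chr8:123411424-123422015, plus strand). It was 8.65, 8.62 and 8.71 in the WY mice and 8.69, 8.71 and 8.73 in the MY mice. It was 8.98, 8.60, 8.69, 8.81 and 8.82 in the WO mice and 8.25, 8.55, 8.42, 8.60 and 8.50 in the MO mice. Every MO mouse lay below every mouse of the other 3 groups, the closest being 8.60 in both MO4 and WO2. WO minus WY was 0.12 (SE 0.08) and MO minus WO was -0.32 (SE 0.08). *Tubb3* fell by 0.25 from MY to MO (SE 0.07, limma FDR 0.0396), a drop of 15.9%, and this call was lost in 5 of 8 fits without 1 mouse. *Dcx*, the microtubule-stabilising protein of migrating neurons (chrX:143855842-143933311, minus strand), ranged over 1.65 to 1.78, 1.68 to 1.75, 1.497 to 1.72 and 1.39 to 1.76 in WY, MY, WO and MO mice. No *Dcx* group stood apart, and its differences lay between -0.11 and -0.01 in the 4 comparisons. After quantile normalization MO minus MY was -0.23 (SE 0.08, limma FDR 0.0494).

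*Sox4* and *Sox11*, the SoxC transcription factors, were low in level and higher in MO than in WO mice. *Sox4* (chr13:28948919-28953713, minus strand, 1 exon) was 1.83, 1.99 and 2.19 in the WY mice and 1.85, 1.95 and 1.80 in the MY mice. It was 1.42, 1.54, 1.51, 1.88 and 1.54 in the WO mice and 1.83, 1.99, 1.99, 1.95 and 2.00 in the MO mice. Apart from WO4, the WO mice lay below all others. WO was 0.42 lower than WY (SE 0.11), MO was 0.37 higher than WO (SE 0.08; 0.44 in batch 1, 0.26 in batch 2), and MO minus MY was 0.08 (95% interval -0.04 to 0.21, limma FDR 0.314). Of the transcript's 50-base windows, 54.1% are also in the opposite-strand lincRNA *Gm26735*. The kit marks strand, but the strand setting of the quantification is not given in the sources used here, so reads of the pair cannot be told apart with certainty.

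*Sox11* (chr12:27334264-27342574, minus strand, 1 exon) was 0.99, 1.03 and 1.08 in the WY mice and 1.06, 0.99 and 1.05 in the MY mice. It was 0.97, 0.98, 0.90, 0.88 and 0.93 in the WO mice and 1.48, 1.30, 1.31, 1.25 and 1.25 in the MO mice. Every MO mouse lay above every other mouse, and the WO mice lay below all young mice. *Sox11* rose by 0.28 from MY to MO (SE 0.06, 95% interval 0.15 to 0.42, limma FDR 0.00902), and by 0.30 without MO5 (FDR 0.0125). The difference was 0.47 with a pseudocount of 0.1 and 0.16 after quantile normalization, where it failed the FDR (0.0805). MO minus WO was 0.38 (SE 0.05; 0.66 with a pseudocount of 0.1), and WO minus WY was -0.10 (SE 0.04). None of its windows is shared with another gene.

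*Cd24a*, a glycoprotein on the surface of differentiating neurons (chr10:43578284-43584265, plus strand), was 6.05 to 6.17 in WY mice, 6.01 to 6.22 in MY mice and 6.00 to 6.15 in WO mice. Its MO values of 6.39, 6.57, 5.93, 6.43 and 6.09 held both the lowest and the highest of all 16 mice. MO minus MY was 0.19 (SE 0.14, limma FDR 0.389; 0.11 without MO2), MO minus WO was 0.23 (SE 0.11; 0.32 without MO3) and WO minus WY was -0.07 (SE 0.05).

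In the comparison of MY with MO, which asks how the mutant line differed between a young age and end stage, 0 of 10 members passed both thresholds (FDR not above 0.05, absolute fold change not under 1.5), against 4.9% of all genes. By FDR alone 3 members passed (*Marcks* and *Sox11* up, *Tubb3* down), against 25.6% of all genes, and 3 had an unadjusted p under 0.05, against 36.7% of genes. The members' median log2 fold change was -0.08, and that of all genes was 0.00472. Ranges did not overlap for 2 of 10 members (*Tubb3* and *Sox11*), against 31.6% of genes. These shares are near or below those of the table as a whole. The MO mice are those of the contrast with WO that chose the members. *Marcks* failed the FDR also with a batch term (0.105), with a pseudocount of 0.1 (0.056) and, of the fits without 1 mouse, passed only in that without MO1 (0.00087). Without MO5, *Marcks* was at 0.30 (FDR 0.0716) and *Tubb3* at -0.26 (FDR 0.0596). Of the members that had not passed, *Marcksl1* was then at -0.21, *Basp1* at -0.01, *Dcx* at -0.10, *Stmn1* at -0.30, *Tubb2b* at -0.16, *Sox4* at 0.07 and *Cd24a* at 0.23, and none passed. *Tubb3* failed it also without MO3, MY1, MY2 or MY3, with a pseudocount of 0.1 (0.0617) and with a variance trend (0.0572), and *Sox11* failed it only after quantile normalization (FDR 0.0805). *Stmn1* passed it in batch 1 alone (-0.43, FDR 0.0187) and after quantile normalization (-0.45, FDR 0.0125). In batch 1 alone MO minus MY was 0.25 for *Marcks*, -0.04 for *Basp1*, -0.13 for *Dcx* and -0.30 for *Tubb2b*. It was -0.31 for *Tubb3*, 0.07 for *Sox4*, 0.33 for *Sox11* and 0.20 for *Cd24a*.

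For WY against MY, the comparison of genotypes before symptoms, 0 of 10 members passed, by either rule, against 0.0055% of genes by either rule (1 gene). Of the members, 2 had an unadjusted p under 0.05 in limma (*Marcksl1*, 0.20 lower in MY, SE 0.07, FDR 0.666, and *Tubb2b*, 0.09 lower, FDR 0.695), against 7.16% of genes. Both had non-overlapping ranges, as did 13.7% of genes. Of the 10 differences, 9 were below 0, with a median of -0.09 against -0.00250 over all genes, and those of *Dcx*, *Sox11* and *Cd24a* changed sign after quantile normalization. The WY mice are those of the contrast with WO that chose the members, so nothing is read from these signs.

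For the 2 comparisons that chose the members, counts are given with no reading. From WY to WO, 9 of 10 were lower in the mean and 6 had all WO mice below all WY mice, against 5.86% of genes, and 1 (*Marcksl1*) passed both thresholds, against 0.253% of genes, with 3 by FDR alone, against 1.12%. Without WY3 the count past both thresholds was 0. In batch 1 alone WO minus WY was -0.52 for *Marcks*, -0.21 for *Basp1*, -0.15 for *Dcx*, -0.39 for *Stmn1* and -0.41 for *Tubb2b*. It was 0.10 for *Tubb3*, -0.51 for *Sox4*, -0.09 for *Sox11* and -0.04 for *Cd24a*. From WO to MO, 2 passed both (*Marcksl1* and *Marcks*), against 4.6%, and 5 by FDR alone, against 27.9% (1 and 3 in batch 1 alone, 3 and 5 with a pseudocount of 0.1). Without MO5 the counts were 2 and 5, and MO minus WO was 0.69 for *Marcks*, 0.36 for *Sox4*, 0.40 for *Sox11*, -0.32 for *Tubb3*, 0.14 for both *Basp1* and *Tubb2b*, 0.28 for *Cd24a*, -0.12 for *Stmn1* and -0.00036 for *Dcx*. For the difference of the age change between genotypes, (MO minus MY) less (WO minus WY), 5 passed by FDR alone, against 17.7%. It was 0.87 for *Marcksl1*, 0.86 for *Marcks*, 0.51 for *Sox4*, 0.39 for *Sox11* and -0.37 for *Tubb3*.

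**Figure D2:**
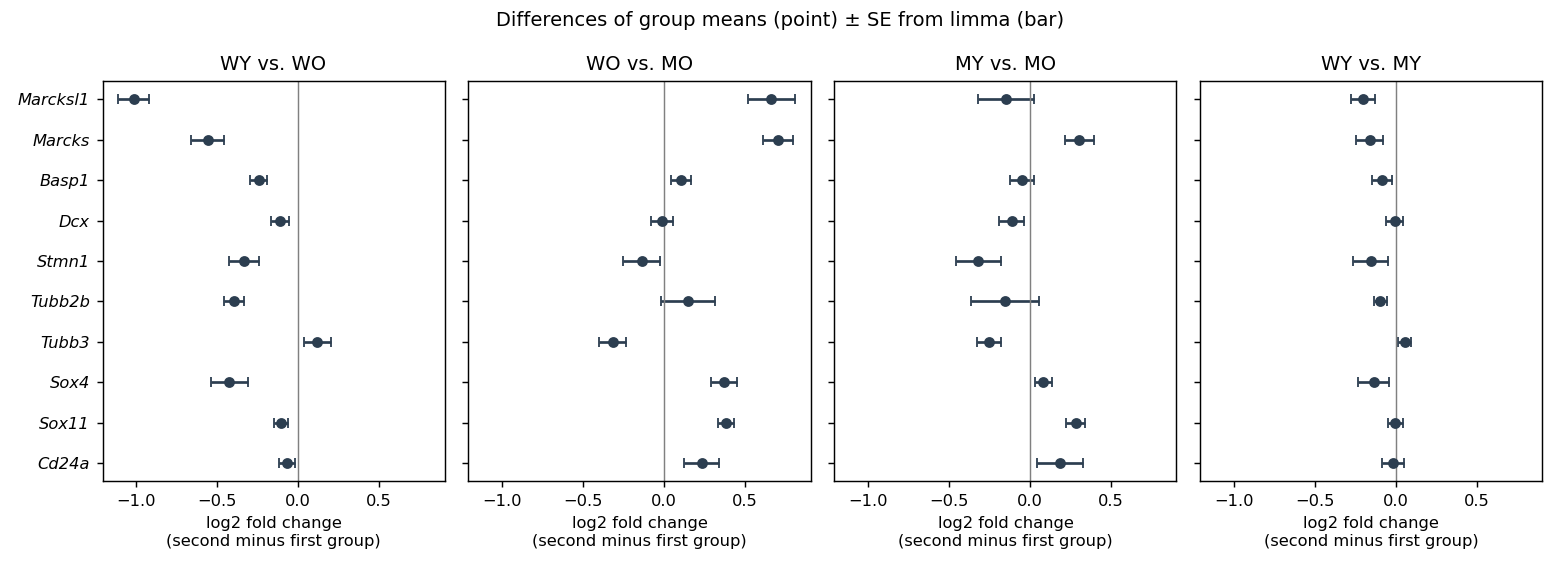
Log2 fold change (x axis, second minus first group) of the 10 members (y axis) in 4 comparisons, points with SE bars from limma. In WO vs. MO *Marcksl1* and *Marcks* lie at 0.66 and 0.70, *Tubb3* at -0.32, and in WY vs. MY all lie between -0.20 and 0.05. The first and second panels are the contrasts that chose the members.

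Other growth cone and microtubule genes, from a list of 33, included genes that rose and, by FDR alone, genes that fell. In both MY vs. MO and WO vs. MO, 3 of 33 rose past both thresholds and 0 fell, with 4 up and 10 down by FDR alone (of all genes, 4.9% and 4.6% passed both thresholds and 25.6% and 27.9% by FDR alone), and 0 changed in WY vs. WO or in WY vs. MY. The 3 were the tubulins *Tuba1c* (0.65 from MY, 0.89 from WO) and *Tubb6* (0.74 and 0.90), and the kinase *Prkcd* (0.59 and 0.79). *Tuba1c* was low in level, with a mean log2 value of 0.24 in WO and 1.13 in MO mice. By FDR alone *Gap43*, a growth-cone protein of the same class as *Basp1* and *Marcks* and named after its values were seen, also rose (0.32 and 0.41). Of the 10 that fell, *Tubb4a* (-0.57 and -0.48), *Dpysl5* (-0.50 and -0.31) and *Map1b* (-0.49 and -0.43) fell most from MY to MO. They too were named after their values were seen. The median of the 33 was -0.12 from MY and -0.07 from WO. None of 21 transcription factors that promote or restrain neurogenesis (*Rest*, *Hes5*, *Id2* and *Id4* are among them) passed both thresholds. By FDR alone 1 rose and 1 fell from MY to MO, and 2 rose and 3 fell from WO to MO. *Hes6* rose and *Myt1l* fell in both comparisons. From WO to MO *Id4* (0.51) also rose, and *Neurod2* (-0.22) and *Nfix* (-0.28) also fell. All of these were named after their values were seen. Of 12 mature neuron genes, the neurofilament genes *Nefh* (-0.81 and -0.74), *Nefm* (-0.78 and -0.70) and *Nefl* (-0.74 and -0.75) fell in MO against both MY and WO, and 10 and 9 of the 12 fell by FDR alone.

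Cell type markers differed between the same groups. The 7 microglia markers (7 of 7 called higher in MO against both MY and WO) summed to 158 to 284 FPKM in MO mice and to at most 62.0 in the other mice, and *Itgax*, a microglial integrin, was near 0 outside MO. The astrocyte markers summed to 2587 to 3490 FPKM in MO, 1149 to 1383 in WO, 1630 to 1748 in WY and 1512 to 1565 in MY mice. *Gfap* rose by 1.60 from WO to MO, and from WY to WO *Aqp4* fell past both thresholds (-0.65) and *Gfap* by FDR alone (-0.54). The 4 dividing cell markers summed to 1.59 to 1.92 FPKM in WY, 0.985 to 1.499 in MY, 0.506 to 1.25 in WO and 1.03 to 3.52 in MO mice. The 6 markers of newly formed oligodendrocytes summed to a median of 285 FPKM in WY, 279 in MY, 248 in WO and 200.2 in MO mice. Their sum is mostly *Bcas1*, whose mean log2 level was 7.92 in WY mice, with *Enpp6* next at 4.64. From WY to WO *Bcas1* differed by -0.18. Past both thresholds, *Bmp4* and *Gpr17* fell from WY to WO (-0.62 and -1.07), and *Gpr17* and *Enpp6* from MY to MO (-0.74 and -1.13). From WO to MO these markers went both ways. *Gpr17* (0.34), *Neu4* (0.12) and *Tcf7l2* (0.18) were higher in the mean, and *Bmp4* (-0.04), *Enpp6* (-0.45) and *Bcas1* (-0.36) lower. The 6 markers of oligodendrocyte precursors summed to 263 to 288, 261 to 267, 227 to 250 and 168 to 232 FPKM in WY, MY, WO and MO mice. These sums follow *Olig1* most (mean log2 level 7.32 in WY mice) and *Pdgfra* (3.33) and *Cspg4* (2.04) little. The precursor markers too went both ways from WO to MO. *Olig1* (-0.33), *Olig2* (-0.31) and *Sox10* (-0.27) were lower in the mean, and *Pdgfra* (0.17), *Cspg4* (0.17) and *Ptprz1* (0.11) higher. Of 6 myelin markers, 2 fell past both thresholds from WY to WO, 2 from MY to MO and 1 from WO to MO. Their sum set libraries of batch 2 apart, at 4531 FPKM in WO4, 23196 in WO5, 21401 in MO4 and 20800 in MO5, against 6579 to 9595 in the old mice of batch 1 and 13101 to 15482 in the young mice. Motor neuron markers summed to 13.0 to 16.1 FPKM in MO, 21.6 to 23.8 in WO, 14.03 to 19.8 in WY and 18.2 to 19.5 in MY mice, and *Chat*, which makes acetylcholine, fell by 0.67 from WO to MO. The part of these cells in the members' differences was not tested.

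**Figure D3:**
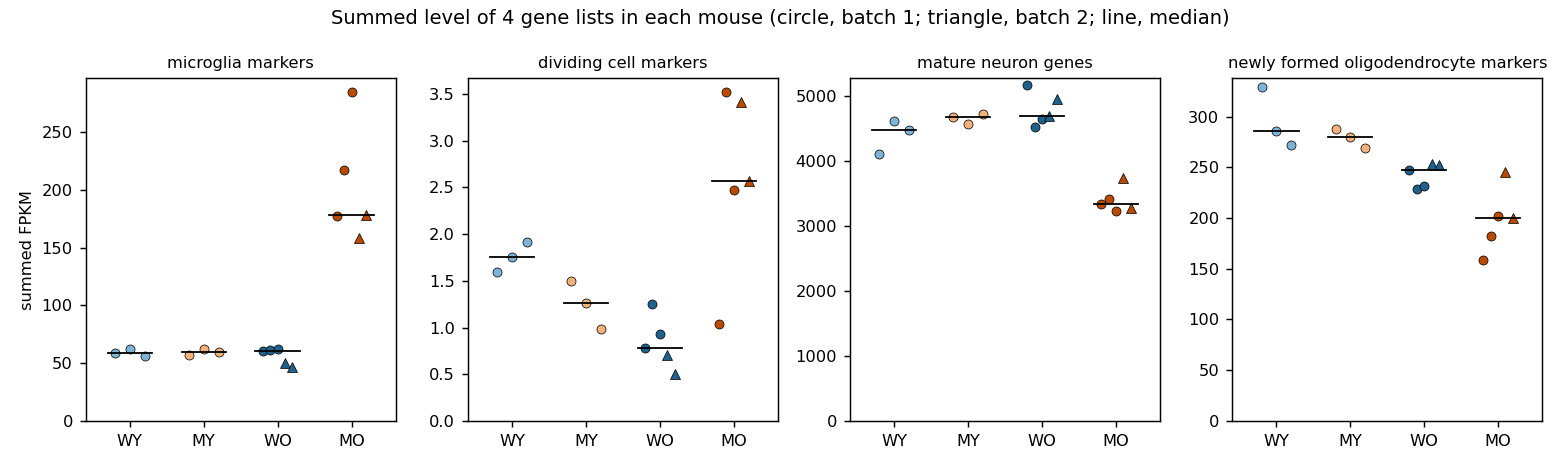
Summed FPKM (y axis, starting at 0) of the microglia markers, dividing cell markers, mature neuron genes and newly formed oligodendrocyte markers in each mouse by group (x axis); circles are batch 1, triangles batch 2 and lines medians. Microglia markers reach 158 to 284 in MO mice against at most 62.0 elsewhere. The sum of the newly formed oligodendrocyte markers is mostly *Bcas1*.

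The genes whose levels over the 16 mice were most like *Marcksl1* among 13529 with a mean of at least 1 were *Ddah2*, *Pdlim2*, *Taldo1*, *Rab7b* and *Lrrc55* (Pearson r across mice 0.96, 0.96, 0.95, 0.94 and 0.94). All 5 had their lowest group mean in WO and their highest in WY, as *Rab7b* at 2.76, 2.55, 1.55 and 2.50 in WY, MY, WO and MO. For *Tubb3* they were *Tuba4a*, *Tubb4b*, *Fsd1*, *Cend1* and *Tubb5* (r 0.95, 0.95, 0.95, 0.95 and 0.94), including 3 other tubulins. For *Sox11*, a list added after its values were seen, they were *Ms4a6c*, *Cd109*, *Klf6*, *Ifngr1* and *Pbxip1* (r 0.96, 0.96, 0.96, 0.95 and 0.95). *Ms4a6c*, known from microglia and macrophages, went from 0.48 in WO to 2.89 in MO mice. The 16 mice form groups, so these r values describe group differences more than variation within a group. The genes were picked by r over these same mice, so that sharing a member's group pattern follows from the choice.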

How the data were processed

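Spinal cord RNA of 16 mice was sequenced from poly(A)-selected stranded libraries. As the study's methods and labels state, the authors used Trimmomatic for cleaning and TopHat for alignment to mm10, computed FPKM with Cufflinks, removed genes at 0 in at least 8 mice, added 1, took log2 and adjusted for 2 library batches with ComBat. The log2 values were used as deposited. Tool versions, the annotation and ComBat's covariates are not given in the sources used here, nor is the depth behind single genes, so that error comes from differences between mice only. Each comparison was fitted on its 2 groups with limma 3.58.1 in R 4.3.3 (lmFit and eBayes, two-sided, Benjamini-Hochberg over 18167 genes, second minus first group), and the procedure was tested on simulated data. Calls needed an FDR not above 0.05 and an absolute fold change not under 1.5. Alternatives were batch 1 alone, a batch term, 1 fit of all groups, quantile normalization, a pseudocount of 0.1, a mean filter of 1, a variance trend, a replicate block and leaving out each mouse. The members and gene lists were chosen with earlier results of these data known. Named were all members, listed genes called in a comparison (at most 6 a list) and the 5 genes most like *Marcksl1* and *Tubb3*. *Gap43*, *Tubb4a*, *Dpysl5*, *Map1b*, *Hes6*, *Id4*, *Myt1l*, *Neurod2*, *Nfix* and the genes most like *Sox11* were added after their values were seen. So were the markers of oligodendrocyte precursors and of newly formed oligodendrocytes that were not called.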

Additional observations from a re-analysis of the deposited data

Results flagged for a closer look

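In groups of 5 mice, 3 member values stood far from the rest of their group: *Marcks* in MO1 (5.15, below the other MO mice), *Sox4* in WO4 (1.88, above the other WO mice) and *Cd24a* in WO3 (6.15, above the other WO mice). Chance alone marks about 1 in 20 groups. The change with age differed between genotypes for 5 members by the interaction term in limma (FDR alone), against 17.7% of all genes: 0.87 for *Marcksl1*, 0.86 for *Marcks*, 0.51 for *Sox4*, 0.39 for *Sox11* and -0.37 for *Tubb3*. These values, that of *Marcksl1* first, hold the contrasts that chose the members and are a description.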

How the results depend on the processing

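The 850 alternative values of the members' differences cover the 4 comparisons and the difference of the age change. Those of the tested comparisons (MY vs. MO and WY vs. MY), a smaller part of the 850, changed direction in 12. They came to pass the FDR in 5 and no longer passed it in 19. A pass could be lost only by the 3 members that passed from MY to MO, so 850 is not the base of that count. Values of the contrasts that were only described moved by more than the SD between mice in 9. Members passing by FDR alone from MY to MO numbered 3, 1 with a pseudocount of 0.1, 4 after quantile normalization (*Marcks*, *Dcx*, *Stmn1* and *Tubb3*), and 1 to 3 without 1 mouse. From WO to MO the 2 past both thresholds became 1, and the 5 by FDR alone 3, in batch 1 alone, where fewer mice are compared; they were 3 and 5 with a pseudocount of 0.1 (*Sox11* added), and those by FDR alone 4 with the replicate block and 5 to 6 without 1 mouse. From WY to WO the 3 by FDR alone became 1 in batch 1 alone, with a pseudocount of 0.1 and with the replicate block, and 0 to 3 without 1 mouse; the 1 past both became 0 to 1, with 0 only without WY3. The difference of the age change passed for 4 to 6 members without 1 mouse. Directions turned after quantile normalization for *Sox4* from MY to MO (-0.027) and from WY to MY for *Dcx* (0.0057), *Sox11* (0.0060) and *Cd24a* (0.0019); the cause was not tested. Without 1 mouse, *Tubb2b* from MY to MO ran from -0.25 to 0.019, and from WY to MY *Sox11* ran from -0.024 to 0.019, *Dcx* from -0.048 to 0.015 and *Cd24a* from -0.080 to 0.027. Equal replicate numbers did not pair the mice (correlations of deviations from -0.21 to 0.38), although in MY vs. MO every mouse numbered 1 to 3 correlated best with its own number, and with the replicate block there 3 members passed by FDR alone, *Stmn1* (FDR 0.0241) among them and *Marcks* (FDR 0.147) not.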
